A study of Mus musculus with 15 samples.

Results

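The airway surface is kept wet by a thin layer of liquid whose volume, acidity and stickiness depend on which ions the epithelium moves. The 10 genes described here encode apical and basolateral ion transporters known from airway epithelium together with Clca3, a secreted mucus protein. They were chosen by name as the rows Clca3, Slc26a4, Slc26a9, Ano1, Cftr, Slc12a2, Atp12a, Scnn1a, Scnn1b and Scnn1g of a table of 24054 gene symbols, and all 10 were found. In the lungs of mice with ovalbumin (OVA) asthma, Clca3 and the anion exchanger Slc26a4 rose, Slc26a9 and the 3 subunits of the epithelial sodium channel (ENaC) fell, and no change was called in Ano1, Cftr or Slc12a2. Atp12a had too few counts to be tested. No difference was called in any of the tested genes between OVA mice given an antibody against IL-4Ra and OVA mice given a control antibody.

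The 15 animals were female wild-type Balb mice, 5 in each of 3 groups, and whole-lung RNA was sequenced from every mouse. Mice of the saline group were sham-sensitised and received a control antibody of matched isotype. Mice of the OVA group were sensitised with OVA by the intraperitoneal route, challenged with nebulised OVA and given the same isotype control. In the anti-IL-4Ra group a monoclonal antibody to mouse IL-4Ra at 30 mg/kg took the place of the isotype control in animals sensitised and challenged with OVA. All mice thus received an antibody, and no group had antibody to IL-4Ra without OVA. IL-4 and IL-13 both signal through receptors that contain the IL-4Ra chain, so comparing the last 2 groups asks which changes of the OVA lung differ when that chain is bound.

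In airway epithelium, chloride enters from the blood side through the cotransporter NKCC1 (Slc12a2) and leaves at the apical face through CFTR and the calcium-activated channel ANO1, while pendrin (Slc26a4) and SLC26A9 carry chloride, pendrin in exchange for bicarbonate. ENaC, built from alpha, beta and gamma subunits (Scnn1a, Scnn1b, Scnn1g), takes sodium and with it water back from the surface, both in the airways and in the alveoli. IL-13 is a well known inducer of goblet cells, of Clca3 and of pendrin in cultured and living airways. Clca3, now named Clca1, belongs to a family once taken for chloride channels; its product is secreted with mucus, and its human counterpart is known to raise ANO1 currents.

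Libraries of the saline group held 16774285 to 27570666 expected counts, those of the OVA group 10042825 to 14706131 and those of the anti-IL-4Ra group 12317805 to 16914475. Rn45s, which encodes the ribosomal RNA precursor, took 1.19 to 2.88% of the counts with saline and 4.31 to 12.4% with OVA, without overlap. In anti-IL-4Ra replicates 1 to 5 it was 9.80, 3.10, 9.79, 12.4 and 1.65%. The libraries carried the defining transcripts of lung: markers of alveolar type 2 cells summed to 13430 to 18970 CPM with saline (CPM, counts scaled to a common library total, are used for all levels below). Transcripts of heart muscle were present too, at 9.50 to 1628 CPM in sum over all libraries.

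For 3 members whose results stand out below, the 250 bases before the annotated start are shown so that the sequence can be set beside the response: Slc26a4, which rose, and the neighbouring ENaC genes Scnn1b and Scnn1g, which fell together. The windows are chr12:31559985-31560234 on the minus strand, chr7:121864788-121865037 on the plus strand and chr7:121734229-121734478 on the plus strand, in RefSeq's GRCm38.p6. They are written 5′ to 3′ on the gene's strand, and capitals mark matches to the motifs named in the next paragraph.
Slc26a4: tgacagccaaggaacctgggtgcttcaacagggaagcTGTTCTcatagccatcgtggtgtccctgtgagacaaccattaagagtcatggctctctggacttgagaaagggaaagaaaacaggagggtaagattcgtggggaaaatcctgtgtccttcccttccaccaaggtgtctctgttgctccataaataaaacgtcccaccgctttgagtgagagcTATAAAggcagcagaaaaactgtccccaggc
Scnn1b: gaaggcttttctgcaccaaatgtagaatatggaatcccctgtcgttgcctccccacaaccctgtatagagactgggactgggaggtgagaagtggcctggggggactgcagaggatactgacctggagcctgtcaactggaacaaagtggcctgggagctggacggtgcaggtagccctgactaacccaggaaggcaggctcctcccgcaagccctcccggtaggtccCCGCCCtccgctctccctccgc
Scnn1g: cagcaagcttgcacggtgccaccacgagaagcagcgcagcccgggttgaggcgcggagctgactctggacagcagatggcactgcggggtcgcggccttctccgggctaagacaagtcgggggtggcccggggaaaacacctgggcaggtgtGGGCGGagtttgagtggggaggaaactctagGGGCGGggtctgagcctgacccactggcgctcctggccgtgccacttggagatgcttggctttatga

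Windows of 6 of the 10 genes were searched on either strand, those above and those of Slc26a9, Ano1 and Cftr. The STAT6 motif, TTC and GAA with 4 bases between them, the form bound by the transcription factor downstream of IL-4Ra, had no match in the 6 windows, against 5.85% of all 32851 promoter windows of the same length. The general STAT motif TTCNNNGAA (7.02% of all windows) and the forkhead motif TGTTTAC (3.17%) had no match either. Slc26a4 held the glucocorticoid receptor half-site AGAACA on its minus strand, written TGTTCT, 213 bases before the start (16.1% of all windows). It also held a TATA box, TATAAA, 31 bases before the start. Slc26a9 held 2 overlapping TATA matches, and TATAAA occurs in 12.4% of all windows. The GC box GGGCGG, found in 32.7% of all windows, was present in the other 4: once in Scnn1b on the minus strand, 2 times in Scnn1g, 4 times in Ano1 and 6 times in Cftr. These matches describe letters in a window and no binding was measured.

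In OVA lungs against saline lungs, 6 of the 9 members tested were called at an adjusted p under 0.05, 2 higher and 4 lower. Of all 15905 genes tested 37.1% were called in this comparison, 19.3% higher and 17.8% lower. The 5 OVA libraries did not overlap the 5 saline libraries in the same 6 members, as held for 26.6% of all genes. The same 6 had an unadjusted p under 0.05, beside 46.7% of all genes. The median log2 change over the 9 members was -0.14, beside 0.02 over all genes. The member not tested was Atp12a, the alpha subunit of the non-gastric proton-potassium pump. It had 2 counts over the saline group, 1 over the OVA group and 5 over the anti-IL-4Ra group, with at most 2 in a library.

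**Figure D1:**
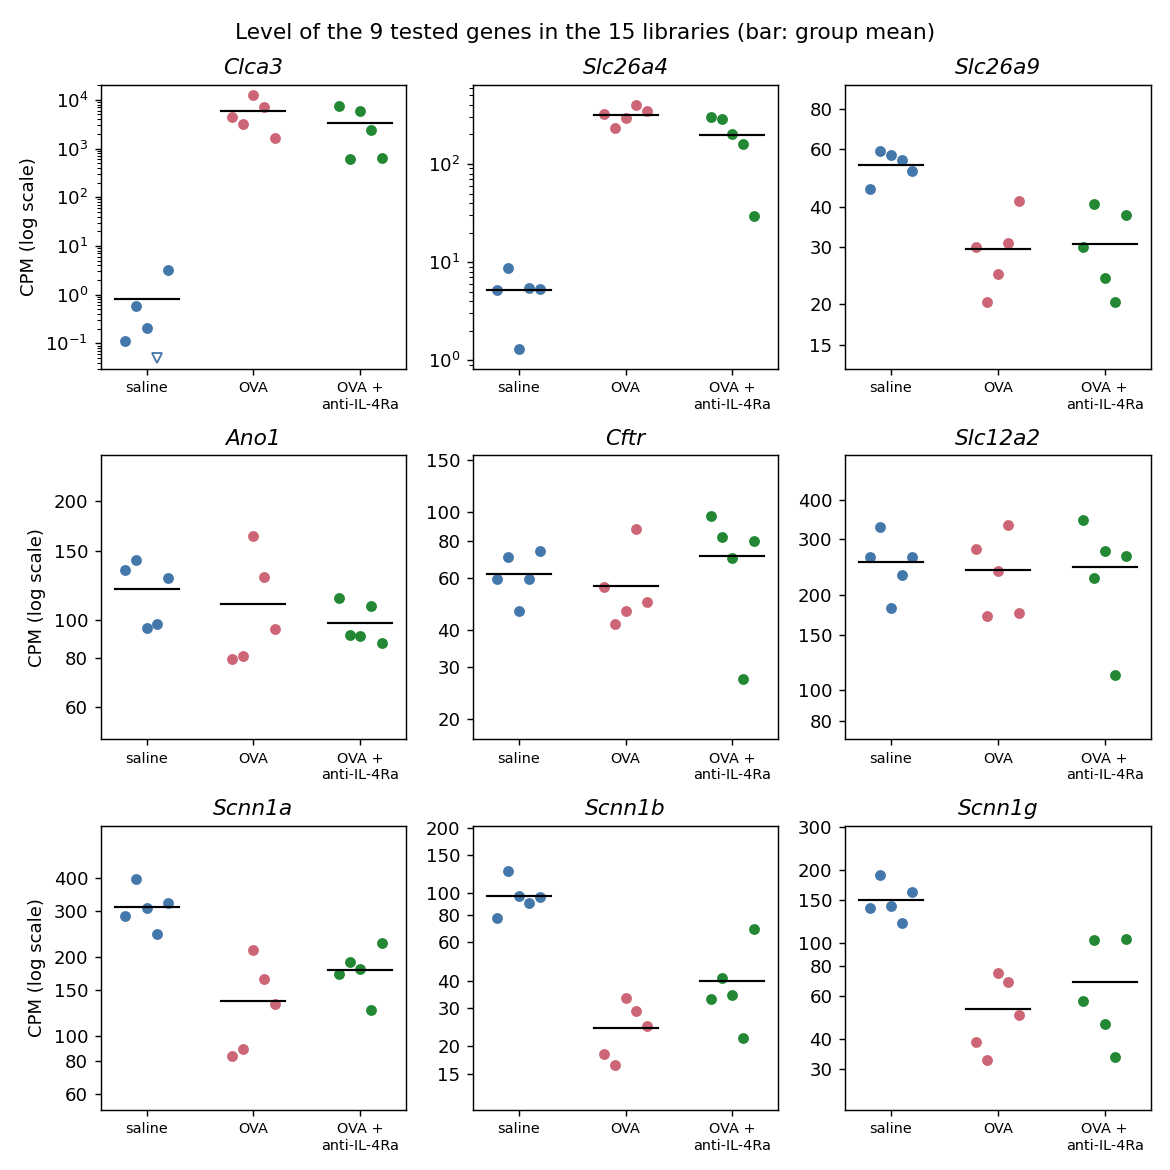
Level of the 9 tested genes in each library, in CPM on a log axis, by group; each point is 1 mouse, in replicate order from left to right, and the bar is the group mean. The open triangle marks the saline library with 0 counts of Clca3. Clca3 and Slc26a4 lie higher and Slc26a9 and the 3 Scnn1 genes lie lower in all 10 OVA-exposed libraries than in the 5 saline libraries, while Ano1, Cftr and Slc12a2 overlap.

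Clca3 was close to absent in saline lungs, at 0.113, 0.581, 0.202, 0 and 3.17 CPM in replicates 1 to 5. With OVA it stood at 4520, 3119, 12642, 7124 and 1664 CPM. Every OVA library was thus above every saline library, and within the OVA group the highest was 7.60 times the lowest. The means were 0.814 ± 1.34 and 5814 ± 4316 CPM (SD, n = 5 each). The fitted log2 change was 12.91 ± 1.32 (SE, adjusted p = 1.64e-05, 95% interval 10.1 to 15.7). Its size rests on a saline level of 74 counts in all, 52 of them in replicate 5, without which the log2 change was 14.53.

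In the anti-IL-4Ra group Clca3 was at 7450, 596, 6004, 2401 and 636 CPM (mean 3418 ± 3150 CPM, SD, n = 5). Replicates 2 and 5 were below all OVA libraries and the other 3 lay within the OVA range. The log2 difference from OVA was -0.77 ± 0.79 (SE, unadjusted p = 0.349, adjusted p = 1). Its 95% interval, -2.45 to 0.92, includes 0. Against saline all 5 libraries were higher, by 12.14 ± 1.29 (adjusted p = 6.98e-05), and by 13.76 without saline replicate 5.

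Clca3 moved beside the goblet cell genes. All 9 goblet cell markers listed (Muc5ac, Muc5b, Spdef, Foxa3, Agr2, Fcgbp, Itln1, Tff2 and Gcnt3) were called higher with OVA. None was called between anti-IL-4Ra and OVA, where all 9 were estimated lower (median log2 difference -0.558). The largest difference was in Itln1, at -1.85 ± 0.565 (SE, edgeR unadjusted p = 0.00484, adjusted p = 0.392). Its libraries ran from 74.7 to 240.8 CPM with OVA and from 4.37 to 71.1 CPM with anti-IL-4Ra. They did not overlap, as held for 1.17% of all genes. In sum the 9 markers reached 12.2 to 286.6 CPM in saline libraries, 1416 to 8918 CPM in OVA libraries and 463 to 6393 CPM in anti-IL-4Ra libraries. Muc5ac, the gel-forming mucin of goblet cells, stood in anti-IL-4Ra replicates 1 to 5 at 1767, 76.6, 1583, 359 and 67.3 CPM, lowest in the same replicates 2 and 5 as Clca3. Because these are whole lungs, more cells of a type and more RNA per cell cannot be told apart. None of the 4 pan-epithelial markers (Epcam, Cdh1, Krt8, Krt18) was called in any of the 3 comparisons. Cdh1 came nearest, at -0.68 ± 0.27 with OVA against saline (SE, edgeR adjusted p = 0.0547). The summed level of the 4 had a median of 587.5 CPM with saline (506.3 to 939.8) and 375.9 CPM with OVA (342.6 to 756.2). With anti-IL-4Ra that median was 555.7 CPM. The part that goblet cell number played in the level of Clca3 was not tested.

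Slc26a4, the gene of pendrin, had 5.15, 8.75, 1.31, 5.44 and 5.37 CPM in the saline libraries. It had 321, 235, 296, 399 and 343 CPM in the OVA libraries. The groups did not overlap, and the OVA libraries were close together, the highest being 1.70 times the lowest. The change from 5.21 ± 2.64 to 319 ± 60.6 CPM (SD, n = 5 each) was fitted as 5.93 ± 0.57 on the log2 scale (SE, adjusted p = 1.24e-05), 60.9-fold.

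With anti-IL-4Ra, Slc26a4 was at 298, 286, 203, 161 and 29.8 CPM (mean 196 ± 109 CPM, SD, n = 5). All 5 libraries were below the OVA median and 3 of them were below every OVA library, while all 5 were above every saline library. The log2 difference from OVA was -0.71 ± 0.46 (SE, unadjusted p = 0.142, adjusted p = 1, 95% interval -1.68 to 0.26) and was -0.43 without replicate 5. Against saline the gene was higher by 5.22 ± 0.55 (adjusted p = 6.98e-05). In replicate 5 the cytokine gene Il13 was also low, at 0.227 CPM against 2.29 to 4.54 CPM in the other 4 anti-IL-4Ra libraries, a level near the 0 to 0.218 CPM of saline. Whether that animal responded to OVA as the others did was not tested.

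**Figure D2:**
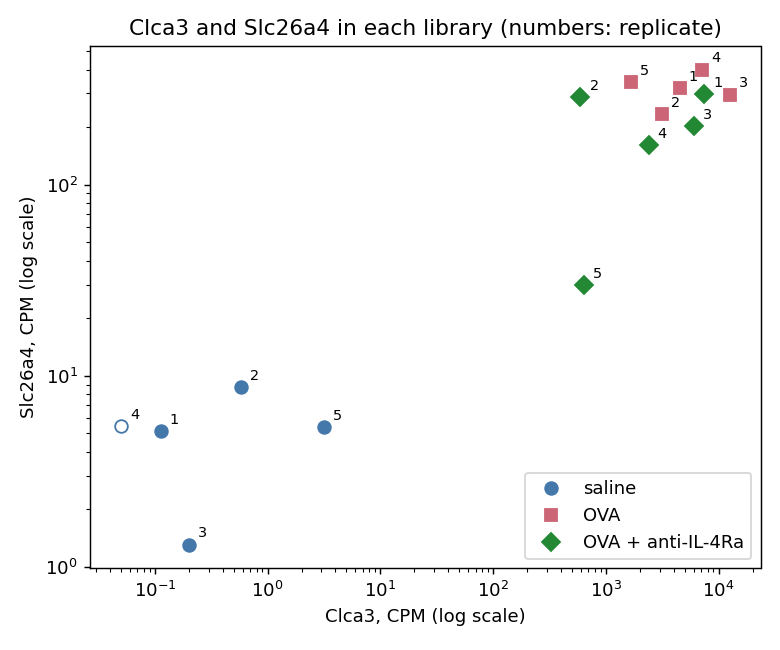
Slc26a4 against Clca3 in the 15 libraries, both in CPM on log axes, with the replicate number beside each point; the open circle is a library with 0 counts of Clca3, drawn at the left edge. Saline libraries lie at the lower left and the OVA-exposed libraries at the upper right, with anti-IL-4Ra replicate 5 between them at 29.8 CPM of Slc26a4.

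Clca3 and Slc26a4 followed each other across the 15 libraries with r = 0.945 (Pearson, log2 CPM), a description that rests mostly on the gap between saline and OVA libraries. Over the 10 OVA-exposed libraries r was 0.543. The plot of both genes shows where they part: anti-IL-4Ra replicate 2 kept 286 CPM of Slc26a4 at 596 CPM of Clca3, the lowest Clca3 level of the OVA-exposed libraries.

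Slc26a9, an apical chloride transporter of airway and gastric epithelium, went the other way from its relative. It had 45.3, 59.1, 57.5, 55.6 and 51.3 CPM with saline and 30.1, 20.4, 24.8, 31.0 and 41.6 CPM with OVA. No OVA library reached the lowest saline library. The means, 53.8 ± 5.55 and 29.6 ± 7.97 CPM (SD, n = 5 each), gave a log2 change of -0.86 ± 0.20 (SE, adjusted p = 0.00358), a 1.82-fold fall. With anti-IL-4Ra it was at 30.1, 40.8, 24.2, 20.3 and 37.6 CPM, again below all saline libraries (-0.81 ± 0.20, adjusted p = 0.00819). The difference between the OVA-exposed groups was 0.05 ± 0.20 (95% interval -0.37 to 0.47), and its sign turned when single libraries were left out.

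The apical chloride channel genes Ano1 and Cftr were not called in any comparison. Ano1 was at 134, 142, 95.4, 97.4 and 128 CPM in the saline libraries. It was at 79.4, 80.9, 164, 128 and 94.7 CPM in the OVA libraries and at 114, 91.6, 91.0, 108 and 87.0 CPM in the anti-IL-4Ra libraries. The saline and OVA libraries overlapped widely, and OVA held both the lowest and the highest value. The OVA difference from saline was -0.13 ± 0.19 on the log2 scale (SE, adjusted p = 0.631), with a 95% interval of -0.53 to 0.28. All 5 anti-IL-4Ra libraries were below the saline median, at a difference of -0.28 ± 0.19 (adjusted p = 0.287, 95% interval -0.68 to 0.12).

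Cftr, the cyclic AMP-activated anion channel, was at 59.7, 70.6, 46.4, 59.6 and 73.9 CPM with saline and at 56.0, 42.1, 46.2, 87.6 and 49.8 CPM with OVA. The groups overlapped, with a log2 difference of -0.14 ± 0.27 (SE, adjusted p = 0.715, 95% interval -0.71 to 0.44). With anti-IL-4Ra it was at 97.4, 82.6, 70.1, 27.3 and 79.7 CPM, where replicate 4 was below every library of the other groups and 3 replicates were above every saline library. That group differed by 0.34 ± 0.27 from OVA (adjusted p = 1, 95% interval -0.23 to 0.92) and by 0.20 ± 0.27 from saline (adjusted p = 0.602).

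Slc12a2, the cotransporter that loads airway cells with chloride, was not called in any comparison. It averaged 254 ± 53.3 CPM in the saline group, 239.7 ± 69.5 CPM in the OVA group and 245.6 ± 86.2 CPM in the anti-IL-4Ra group (SD, n = 5 each). Its single libraries ran from 182 to 327, from 172 to 335 and from 112 to 346 CPM. The log2 difference between OVA and saline was -0.08 ± 0.26 (SE, adjusted p = 0.822, 95% interval -0.63 to 0.46). The library lowest in Slc12a2 was anti-IL-4Ra replicate 4, also the lowest in Cftr. Across the 15 libraries r between the 2 genes was 0.879, and it was 0.910 once group means were taken out.

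The ENaC subunits fell together. Scnn1a, the alpha subunit without which the channel conducts little, had 288, 396, 308, 245 and 321 CPM with saline. It had 83.7, 89.1, 214, 165 and 132 CPM with OVA, all below the lowest saline library. The log2 change was -1.19 ± 0.24 (SE, adjusted p = 0.00143), a 2.28-fold fall from 311 ± 55.2 to 137 ± 54.3 CPM (SD, n = 5 each).

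Scnn1b, the beta subunit, had 77.5, 127, 97.5, 90.3 and 96.8 CPM with saline and 18.5, 16.4, 33.1, 29.1 and 24.7 CPM with OVA. The highest OVA library was thus under the lowest saline library by a wide gap. From 97.9 ± 18.3 to 24.4 ± 7.01 CPM (SD, n = 5 each), the fall was 4.01-fold, or -2.00 ± 0.27 on the log2 scale (SE, adjusted p = 9.21e-05).

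Scnn1g, the gamma subunit, is the protein-coding gene before Scnn1b on chromosome 7 in RefSeq's order. It had 139, 189, 141, 120 and 161 CPM with saline and 39.0, 32.7, 75.0, 68.6 and 50.5 CPM with OVA, again with no overlap. The fall from 150.2 ± 26.2 to 53.2 ± 18.3 CPM (SD, n = 5 each) was 2.82-fold, -1.50 ± 0.30 on the log2 scale (SE, adjusted p = 0.00151).

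**Figure D3:**
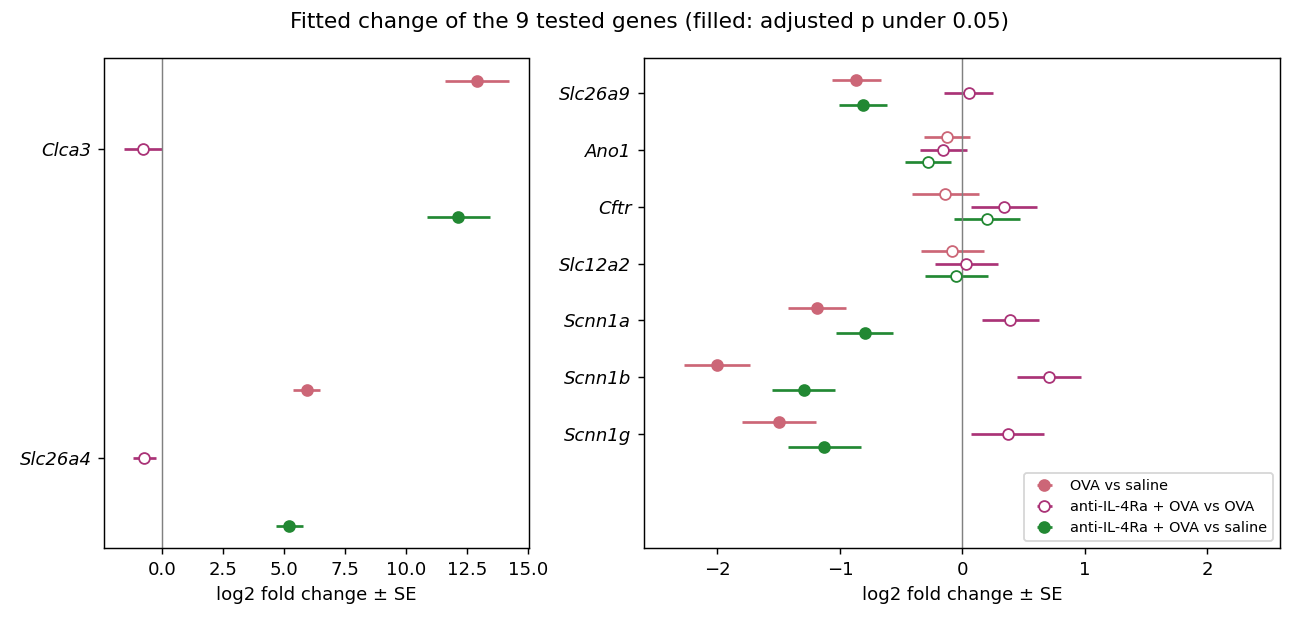
Fitted log2 fold change ± SE of the 9 tested genes in the 3 comparisons; filled points passed an adjusted p under 0.05. The left panel has a wider axis than the right panel. No gene is filled for anti-IL-4Ra with OVA against OVA, while the other comparisons share 6 filled genes and also share the saline libraries.

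With anti-IL-4Ra the subunits lay between the other groups or beside the OVA level. Scnn1b was at 33.0, 41.2, 34.3, 21.8 and 68.7 CPM, and 3 of these libraries were above every OVA library. On the log2 scale it differed from OVA by 0.71 ± 0.26 (95% interval 0.15 to 1.26). The unadjusted p of edgeR's quasi-likelihood test was 0.0155, and the difference did not pass adjustment over all genes (adjusted p = 0.607). Without replicate 5 it was 0.42. Scnn1a, at 172, 192, 180, 125 and 226 CPM, differed from OVA by 0.39 ± 0.23 (adjusted p = 1, 95% interval -0.10 to 0.88). Scnn1g, at 57.4, 103, 46.2, 33.8 and 104 CPM, differed by 0.37 ± 0.30 (adjusted p = 1, 95% interval -0.26 to 1.00). Each subunit stayed below all saline libraries in all 5 anti-IL-4Ra libraries. The falls against saline were -0.80 ± 0.23 for Scnn1a (adjusted p = 0.0204), -1.30 ± 0.26 for Scnn1b (adjusted p = 0.00272) and -1.13 ± 0.30 for Scnn1g (adjusted p = 0.0119).

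The counts of the subunits relative to each other, taken within a library, also differed in the saline and OVA groups. The ratio of Scnn1b to Scnn1a was 0.269 to 0.369 with saline and 0.155 to 0.221 with OVA, without overlap (0.316 ± 0.036 and 0.185 ± 0.024, SD, n = 5 each). The ratio of Scnn1g to Scnn1b ran from 1.33 to 1.80 in saline and from 1.99 to 2.36 in OVA libraries, again without overlap. The ratio of Scnn1g to Scnn1a overlapped, at 0.458 to 0.502 and 0.351 to 0.466. In the anti-IL-4Ra group the ratio of Scnn1b to Scnn1a was 0.174 to 0.215 in replicates 1 to 4 and 0.304 in replicate 5, which alone reached the saline range. The ratio of Scnn1g to Scnn1b lay the other way: replicates 1, 3, 4 and 5, at 1.74, 1.35, 1.55 and 1.51, were within the saline range and below all OVA libraries, and replicate 2, at 2.50, was above them. The ratio of Scnn1g to Scnn1a ran from 0.256 to 0.536. These ratios of uncorrected counts are a description and were not tested.

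**Figure D4:**
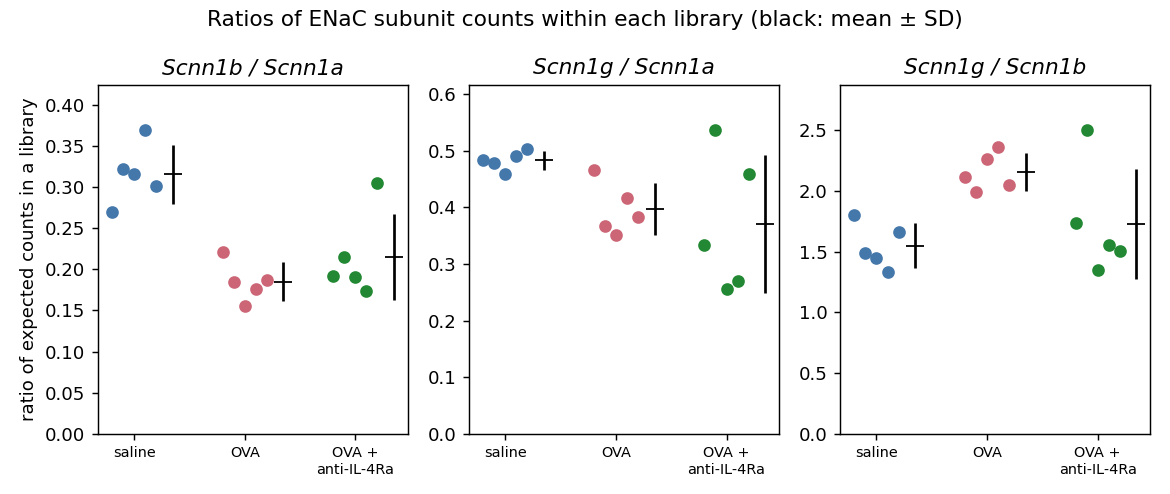
Ratios of expected counts of the ENaC subunit genes within each library, by group; points are single mice in replicate order and the black mark is the mean ± SD. The beta to alpha ratio is below the saline range in all 5 OVA libraries, at 0.155 to 0.221 against 0.269 to 0.369.

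The falls of Scnn1a, Scnn1b, Scnn1g and Slc26a9 went along with 2 other measured features of the libraries. Markers of several epithelial cell types known to carry ENaC fell too: 5 of 6 alveolar type 1, 5 of 7 alveolar type 2 and 5 of 5 club cell markers were called lower with OVA, beside 17.8% of all genes. Summed levels were 3281 to 4436 CPM with saline and 956 to 2212 CPM with OVA for alveolar type 1 cells, 13430 to 18970 and 6016 to 13240 CPM for alveolar type 2 cells, and 11170 to 27020 and 3186 to 9451 CPM for club cells. Of 6 markers of ciliated cells, which also carry ENaC, 1 was called lower, and their summed level overlapped, at 337 to 797 CPM with saline and 326 to 694 CPM with OVA. No defining marker of these 4 lists was at 0 in a group. The 5 endothelial markers were called lower as well, from a summed 2929 to 3966 CPM to 1012 to 1845 CPM. None of the markers named in these lists was called between anti-IL-4Ra and OVA. There the club cell markers had a median log2 difference of 0.916, and 4 of 5 had an edgeR unadjusted p under 0.05. Their summed level with anti-IL-4Ra, 4751 to 14480 CPM, overlapped that with OVA. The medians were 0.257 for alveolar type 1, 0.255 for alveolar type 2 and -0.06 for ciliated cell markers, with 0 such p-values. The part of these cell types in the ENaC falls was not tested.

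The other feature was the Rn45s share, whose ranges in saline and OVA did not meet. With its log2 value as a covariate, Scnn1b was still called lower in OVA at -1.20 ± 0.25 (adjusted p = 0.0145), and Clca3 (12.06) and Slc26a4 (5.55) were still called higher. Scnn1a at -0.73 (adjusted p = 0.151), Scnn1g at -0.59 (adjusted p = 0.205) and Slc26a9 at -0.50 (adjusted p = 0.257) were not. Over all genes, calls went from 5898 to 752 in that fit. Against saline, the anti-IL-4Ra group then had no called fall among the members, Scnn1b being at -0.65 (adjusted p = 0.151). Since the share separates saline from OVA, the contribution of the share and of OVA to these falls cannot be told apart in this design. The anti-IL-4Ra libraries with the lowest shares were replicates 2 and 5. They had the highest Scnn1a, Scnn1b, Scnn1g and Slc26a9 and the lowest Clca3 of their group. In the OVA group the lowest shares were in replicates 4 and 3, at 4.31 and 4.99%. Those libraries also had the highest Scnn1a, Scnn1b and Scnn1g of their group, but the highest Clca3 (7124 and 12642 CPM). Slc26a9 was highest there in replicate 5 (41.6 CPM), the OVA library with the highest share (12.4%).

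Per kilobase of annotated exon, which lets genes be set side by side, the order of the 9 tested members turned over with OVA. In saline lungs Scnn1a led at 75.4 ± 13.4 CPM per kilobase (SD, n = 5), followed by Scnn1g at 50.2 ± 8.75, Scnn1b at 37.2 ± 6.94, Slc12a2 at 23.3 ± 4.88 and Ano1 at 19.1 ± 3.45 CPM per kilobase. Over the 5 mice, the range of each of these overlapped that of its neighbour in the order. Slc26a9 at 10.3 ± 1.06 and Cftr at 7.99 ± 1.40 CPM per kilobase came below them, with ranges that overlapped each other. Slc26a4 (1.68 ± 0.849) and Clca3 (0.216 ± 0.354) came last, with ranges that overlapped too. Within each saline library taken by itself, this order of the 9 genes held. In OVA lungs Clca3 led at 1539 CPM per kilobase, from 440.5 to 3347, and Slc26a4 followed at 103 ± 19.5, from 75.5 to 128.5. Both were clear of Scnn1a, now the third at 33.1 ± 13.1 and up to 51.7 CPM per kilobase. The anti-IL-4Ra group had Clca3 (905 ± 834) and Slc26a4 (62.9 ± 35.1) in front again, but replicate 5 had 9.59 CPM per kilobase of Slc26a4, under the lowest Scnn1a library of that group (30.4).

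Between anti-IL-4Ra and OVA, 0 of the 9 members were called by edgeR's quasi-likelihood test, DESeq2 or limma, beside 0.302% of all genes in the edgeR test (48 genes). At an unadjusted p under 0.05 there was 1 member, Scnn1b, beside 5.68% of all genes, and no member separated the groups, as 1.17% of genes did. The antibody group did differ elsewhere: Arg1, the arginase of alternatively activated macrophages, was at 94.6 to 241 CPM with OVA and at 3.96 to 14.3 CPM with anti-IL-4Ra. Its log2 difference was -4.32 ± 0.38 (SE, adjusted p = 6.78e-05). Il13 itself did not separate these groups (1.49 to 5.06 CPM with OVA and 0.227 to 4.54 CPM with anti-IL-4Ra; 0.18 ± 0.55 on the log2 scale, adjusted p = 1).

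Between anti-IL-4Ra and saline, 6 of 9 members were called and did not overlap, 2 higher and 4 lower, and they were the same 6 genes as for OVA against saline. Of all genes 26.6% were called in this comparison and 19.8% did not overlap, while 39.6% had an unadjusted p under 0.05, as did the same 6 members. The 2 comparisons share their saline libraries, so the repeat of these genes is no independent support. The median of the 9 members was -0.28 on the log2 scale, beside 0.02 over all genes.

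Members of the IL-13 axis gave a mixed picture. With OVA, Il13 rose by 4.73 ± 0.75 on the log2 scale (SE, adjusted p = 0.000323) and Il4 by 2.58 ± 0.59 (adjusted p = 0.00356), while the receptor chains Il4ra, Il13ra1 and the factor Stat6 were not called. With anti-IL-4Ra, Il4ra was called lower against saline, at -0.37 ± 0.12 (SE, edgeR adjusted p = 0.0364). Its difference between anti-IL-4Ra and OVA, -0.23 ± 0.12, was not called. Il13ra2, the decoy receptor for IL-13, was filtered out for low counts and is singled out here after its values were seen. Its single libraries ran from 0.54 to 3.69 CPM with OVA and from 0.0568 to 0.496 CPM with anti-IL-4Ra, without overlap. Il13ra2 had 2 counts over the saline libraries, 143 over the OVA libraries and 15 over the anti-IL-4Ra libraries. Scaled to depth, that is 119 times the saline level with OVA (95% interval 32.2 to 988, counting error only) and 10.8 times with anti-IL-4Ra (2.52 to 97.5).

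A wider set of 90 other ion and water transport genes in 8 lists put the members in context. Of the 83 tested, 23 were called higher and 21 lower with OVA, shares to be read beside 19.3% higher and 17.8% lower over all genes, as are the list counts below. Their median log2 change was 0.05, beside 0.02 over all genes. None of them was called between anti-IL-4Ra and OVA. Against saline the anti-IL-4Ra group had 15 higher and 20 lower, beside 13.9% and 12.7% of all genes. In what follows, genes that changed by under 2-fold are named where a list had few calls, and were chosen after their values were seen.

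**Figure D5:**
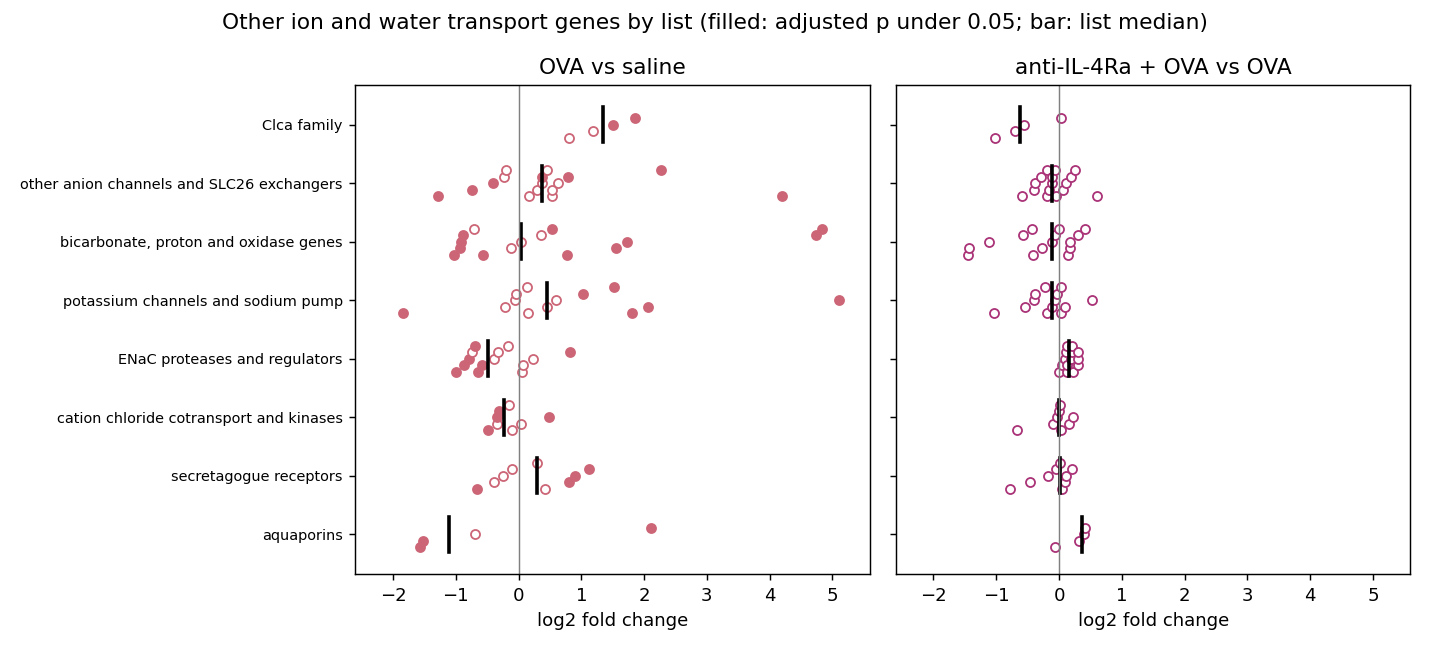
Log2 fold changes of the 83 tested transport genes outside the 10 described, by list, for OVA against saline (left) and for anti-IL-4Ra with OVA against OVA (right); filled points passed an adjusted p under 0.05 and the bar is the list median. Filled points lie on either side of 0 on the left, and none is filled on the right.

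In the Clca family, 2 of 4 tested relatives were higher with OVA, at far lower levels than Clca3: the symbols Clca1 (1.51 ± 0.33, adjusted p = 0.00259) and Clca5 (1.86 ± 0.51, adjusted p = 0.0103). The table's Clca1 is an older symbol of Clca3a1 and is not the gene now called Clca1. The symbol Clca5 is no longer current either and is listed as a synonym of Clca2. The other tested symbols of the family, Clca2 and Clca4, are ambiguous between current genes. All 15 values of the table's Clca1 were not whole, so its reads are shared with a similar copy and its level is uncertain. Every value of Clca3 and of the other 9 members was whole. The summed level of the family without Clca3 was 1.05 to 6.83 CPM with saline and 6.37 to 10.9 CPM with OVA.

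Among 16 tested other anion channels and SLC26 exchangers, 4 were higher and 3 lower with OVA. Ano7, a relative of Ano1, went from 0.162 ± 0.074 to 3.04 ± 1.32 CPM (SD, n = 5 each), a log2 change of 4.19 ± 0.62. Ano2, a calcium-activated channel best known from sensory neurons, rose by 2.26 ± 0.49 from 0.166 to 0.803 CPM, and Ano5 fell by 1.28 on the log2 scale. The anion exchanger Slc26a6 (0.79 ± 0.23) and the proton-activated chloride channel Tmem206 (0.37 ± 0.10) also rose. Lrrc8a, a subunit of the volume-regulated channel (-0.74 ± 0.15), and Ano10 (-0.41 ± 0.11) fell.

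Of 15 bicarbonate, proton and oxidase genes, 6 rose and 5 fell with OVA. The dual oxidase Duox1, which makes hydrogen peroxide at the airway surface, went from 0.241 ± 0.161 to 7.17 ± 2.89 CPM (SD, n = 5 each), by 4.74 ± 0.65 on the log2 scale. Its maturation factor Duoxa1 rose by 4.84 ± 0.75, from 0.056 to 2.03 CPM, with 7 counts in all over the saline group. Hvcn1, the voltage-gated proton channel of leukocytes and airway cells, rose by 1.73 ± 0.39. Car12, a carbonic anhydrase, rose by 1.55 ± 0.46 at low levels, from 0.471 to 1.395 CPM. Car4, a membrane carbonic anhydrase of lung capillaries, fell from 120.4 ± 20.6 to 58.8 ± 19.1 CPM (-1.03 ± 0.27). With anti-IL-4Ra, Duox1 was at 2.66 ± 1.62 CPM (edgeR adjusted p = 0.0022 against saline). In that group Duox2 was lower than with saline by 1.83 on the log2 scale (edgeR adjusted p = 0.000945). Its level was low, at a mean of 1.12 CPM with saline and 0.319 CPM with anti-IL-4Ra, the latter from 23.5 counts in all.

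Potassium channels and pump subunits, which set the voltage that drives chloride out, had 5 higher and 1 lower of 13. Fxyd4, a regulator of the sodium pump, went from 0.222 ± 0.116 to 7.93 ± 2.47 CPM (SD, n = 5 each), by 5.10 ± 0.53 on the log2 scale (adjusted p = 1.7e-05). Kcnn4, the calcium-activated potassium channel of epithelia and leukocytes, rose by 2.07 ± 0.37. Kcne3, a partner of the basolateral channel KCNQ1, rose by 1.81 ± 0.46, Kcnj16 by 1.52 ± 0.45 (from 0.29 to 0.84 CPM) and Kcnj15 by 1.03 ± 0.27. Kcne2, another channel partner, fell from 12.8 ± 2.39 to 3.54 ± 1.50 CPM (-1.84 ± 0.37).

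Of 14 proteases and other regulators of ENaC, 6 fell and 1 rose with OVA, none of them by 2-fold. The 6 were the mineralocorticoid receptor Nr3c2 (-0.99 ± 0.14), the activating protease Prss8 (-0.86 ± 0.18), the ubiquitin ligases Nedd4l (-0.79 ± 0.13) and Nedd4 (-0.58 ± 0.15), the kinase Sgk1 (-0.70 ± 0.14) and the glucocorticoid receptor Nr3c1 (-0.65 ± 0.16). They hold both genes known to raise ENaC activity and genes known to lower it. The protease Tmprss4 rose, by 0.83 ± 0.20 with OVA and by 1.04 with anti-IL-4Ra against saline.

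Cation-chloride cotransporters and their kinases had 1 higher and 3 lower of 8 with OVA. The kinase Stk39 (SPAK), which activates NKCC1, rose by 0.48 ± 0.13, while Oxsr1 (-0.31 ± 0.08), Wnk1 (-0.34 ± 0.12) and the potassium-chloride cotransporter Slc12a4 (-0.49 ± 0.12) fell. Among 9 secretagogue receptors, the prostaglandin E2 receptor Ptger4 (1.12 ± 0.17), the nucleotide receptor P2ry2 (0.90 ± 0.16) and Vipr1 (0.80 ± 0.29) rose. Chrm3, the muscarinic receptor of glands and airway muscle, was called against saline with anti-IL-4Ra alone (-1.02, adjusted p = 0.0246) and not with OVA (-0.24 ± 0.30, adjusted p = 0.556), and the difference between those groups was not called. Of 4 aquaporins, Aqp3 rose by 2.11 ± 0.49, Aqp5, the water channel of alveolar type 1 cells and glands, went from 129 ± 23.9 to 43.4 ± 19.1 CPM (-1.56 ± 0.27), and Aqp1, of endothelium, from 600.3 ± 62.5 to 209 ± 66.2 CPM (-1.52 ± 0.26; SD over 5 libraries).

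Ionocytes, rare airway cells rich in Cftr, are described by 7 listed markers, of which 2 had enough counts to be tested. Foxi1, their defining transcription factor, had 0 counts in all 15 libraries, and Bsnd had 0 counts in the saline and OVA groups. Atp6v1c2, a proton pump subunit and the most abundant of the 7, was at 37.5 ± 4.52 CPM with saline and 39.6 ± 6.03 CPM with OVA (SD over 5 libraries) and was not called (0.08 ± 0.14, adjusted p = 0.681). Moxd1 was called higher with OVA (1.37 ± 0.36, from 0.602 to 1.56 CPM).

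For each member, the 3 genes of the whole table with the most similar pattern over the 15 libraries were listed by Pearson r of log2 CPM, which describes these libraries and rests on the group means wherever the groups differ. Clca3 was followed by Retnla, a resistin-like gene of alternatively activated macrophages and airway epithelium (r = 0.977), the mitotic kinase Melk (0.974) and the chitinase-like Chil4 (0.970). Slc26a4 was nearest to Retnla (0.982), AA467197 (0.977) and the glucose cotransporter Slc5a1 (0.974). Slc26a9 was nearest to Sgip1 (0.962), AI197445 (0.960) and Samd12 (0.957).

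Of the ENaC genes, Scnn1g followed Hopx, a marker of alveolar type 1 cells (r = 0.991), Baiap2l1 (0.989) and Clic3 (0.988). Hopx stood at 249, 323, 270, 220 and 317 CPM with saline and at 90.7, 66.0, 133, 141 and 98.2 CPM with OVA, low and high in much the same libraries as Scnn1g. Scnn1a followed the cytochrome Cyp2b10 (0.979), Ptprf (0.976) and Abca3, the lipid transporter of alveolar type 2 cells (0.974). Scnn1b followed Selenbp1 (0.987), the cytochrome Cyp4b1 (0.977) and Mettl7a1 (0.974). Among themselves the subunits had r of 0.937 to 0.955, and 0.841 to 0.902 once group means were taken out.

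Among the members that were not called, Ano1 followed Pkdrej (r = 0.903), Hsd17b4 (0.867) and Maged1 (0.857), and Cftr followed Acer3 (0.920), Fnip1 (0.919) and Zfp442 (0.906). Slc12a2 followed Yipf6 (0.968), the IL-13 receptor chain Il13ra1 (0.952) and Lmbrd2 (0.946). All of these correlations share the libraries and their depth and scaling.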

How the data were processed

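Total RNA of snap-frozen whole lungs went into strand-specific libraries, per the labels' protocols, which mention ribosomal RNA depletion as well as oligo-dT selection. The authors deposited expected counts per gene symbol, 1 column per mouse, without normalization. Per the submitters' processing notes, the tools were Bowtie2 2.1.0 and RSEM 1.2.15. Those notes also name the human build hg38, although 22542 of 24054 symbols are current mouse RefSeq symbols, so symbols were read as mouse genes and no gene positions are given beyond RefSeq's promoter windows. RSEM divides reads that match several genes, so similar copies can exchange counts. Promoter entries were used for 6 of the 10 genes.

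Expected counts were rounded, genes were filtered by filterByExpr (minimum count 10, minimum total 15), totals were scaled by TMM, and all 15 libraries were fitted together with edgeR 4.0.16's quasi-likelihood test in R 4.3.3. Two-sided p-values were adjusted after Benjamini and Hochberg over the 15905 genes tested, in each of the 3 comparisons. CPM use the TMM-scaled totals, and correlations use log2 CPM with a prior count of 2. SE come from the F statistic. DESeq2 1.42.0 and limma 3.58.1 were alternatives. The code was tested on simulated data. The labels call the replicates biological, and p-values reflect the variation among mice; same-numbered libraries did not deviate together (2 of 15 pairs had r over 0.1, from -0.546 to 0.347) and were not paired. Library pairs of a group differed by more than sampling noise (chi-square of at least 9.58 per degree of freedom).

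The 10 genes and the lists were chosen with earlier results of these data known. By rule, named genes are the 10, the list genes called with at least 2-fold change (at most 5 per list), and the 3 most similar genes per member over 15 libraries. Other genes, such as Arg1, Il13ra2 and list genes under 2-fold, were named after their values were seen.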

Additional observations from a re-analysis of the deposited data

Results flagged for a closer look

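Among 36 groups of 5 libraries checked for a single library apart from the rest, 1 was picked out, and chance picks out about 1 in 20. It was the level of Clca3 with saline, where replicate 5 stood at 3.17 CPM and the other 4 libraries at 0 to 0.581 CPM, a gap of 0.817 of the group's range. Muc5ac, a goblet cell mucin, was at 2.26 CPM in that library and at 0.757 to 7.40 CPM in the other 4. All OVA-exposed libraries had Clca3 at 596 CPM or more, so the library remained far below them. Without it the log2 change of Clca3 was 14.53 in OVA and 13.76 in anti-IL-4Ra mice against saline.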

How the results depend on the processing

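For 27 member changes and the counts of calls, 25 alternatives each were computed: 652 of the 675 values for single members kept their direction and their side of the threshold. DESeq2's size factors, unscaled totals, no low-count filter, DESeq2's Wald test, limma voom, the compared groups alone, Rn45s left out, each mouse left out, and a robust fit chosen after seeing the data left 6, 0 and 6 members called in the 3 comparisons. The replicate number as a block did too, with 4625, 26 and 2891 genes called in all. The log2 Rn45s share as a covariate left 3 members and 752 genes called (486 higher, 266 lower) for OVA against saline, and 2 members and 373 genes for anti-IL-4Ra against saline. DESeq2's Wald test called 128 genes between anti-IL-4Ra and OVA in place of 48. Leaving out single mice gave 4776 to 6619, 32 to 61 and 2844 to 4679 genes. Reversals were all in members that were not called. With the Rn45s covariate, Cftr (0.32) and Slc12a2 (0.25) turned for OVA against saline, Slc12a2 (0.27) for anti-IL-4Ra against saline and Slc26a9 (-0.026) for anti-IL-4Ra against OVA; the cause was not tested. Leaving out single mice, anti-IL-4Ra against OVA ran from -0.25 to 0.061 for Ano1, from -0.10 to 0.24 for Slc12a2 and from -0.061 to 0.20 for Slc26a9, and Slc12a2 ran from -0.27 to 0.015 for OVA and from -0.22 to 0.11 for anti-IL-4Ra against saline. Clca3 moved by over 1.5-fold with limma voom (14.05 and 12.96 on the log2 scale against saline), the covariate (12.06 and 10.97) and without saline replicate 5. Atp12a and 5 of 7 ionocyte markers had too few counts to be tested.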

Other observations

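When the saline libraries were set aside, the genes most similar to some members differed from those over all 15 libraries. Over the 10 OVA-exposed libraries Clca3 was followed by Fcgbp, a mucus protein of goblet cells (r = 0.988), Capn9 (0.981) and Ern2, a stress sensor of mucus-secreting cells (0.980). Fcgbp stood at 597, 383, 2653, 1346 and 284 CPM in OVA replicates 1 to 5 and at 992, 102, 1014, 349 and 85.5 CPM in anti-IL-4Ra replicates 1 to 5. Slc26a4 was followed by Corin (0.968), the chitinase Chia1 (0.954) and the pump regulator Fxyd4 (0.946). Cftr was followed by the chemokine receptor Ccr2 (0.968) and the chemokine Cxcl1 (0.962), and Scnn1g by Fmo2 (0.987), Sbf2 (0.985) and Hopx (0.985). These correlations are descriptions over libraries that share depth and scaling.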
